A study of Mus musculus with 23 samples.

Results

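Wild-type macrophages of the spleen and of the bone marrow were compared in C57BL/6 mouse pups at day 7 after birth. The spleen cells are labelled red pulp macrophages (RPM_d7_WT) and the marrow cells bone marrow macrophages (BMM_d7_WT), with 3 libraries per tissue, each made from 1000 cells sorted by flow cytometry. These 6 of the 23 libraries of the series were chosen by their labels, and all 22524 genes of their table were used. Neither group carries an allele or a treatment in the labels. The same table holds 6 libraries of vavCre pups of the same strain, age and tissues (3 per tissue), in which Cre recombinase is made under the Vav promoter, which is active in blood-forming cells. The series' title and design text concern the loss of Pparg, and the labels name no floxed allele. The sort gate, and whether replicates came from separate animals or from pools, is not given in the sources used here, so the p-values measure the spread between these libraries, which may be technical.

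Red pulp macrophages engulf old red blood cells, break down their heme and return the iron to the blood, and the transcription factor SPIC is required for their development. In the bone marrow, macrophages stand at the centre of erythroblastic islands, where they hold maturing erythroblasts through adhesion molecules such as VCAM1 and swallow the nuclei that these cells expel. Both cells therefore handle iron, and both are sorted from tissues in which they touch erythroblasts. Immediate early genes such as Fos and Egr1 are transcribed within minutes of a stimulus, tissue dissociation among them.

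Values are read counts normalised per library by the submitters, and a level is given per gene on that scale. Recovered reads were 11.6 to 21.7 M in the spleen libraries and 4.58 to 10.8 M in the marrow libraries, so depth moved with the tissue. Genes above 0 numbered 13564 to 13857 in spleen and 13285 to 13696 in marrow. Pearson's r of the log2 values across genes was 0.9442 to 0.9505 within spleen, 0.91 to 0.9339 within marrow and 0.903 to 0.9277 between tissues. The core macrophage genes Csf1r, Cd68, Mrc1, C1qa, C1qb and Tyrobp were at 8770 or more in all 6 libraries. Replicate 3 of each tissue was near 0 for the Y-linked genes, and the other replicates were not.

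Spleen and marrow macrophages differed in 588 of the 15130 genes tested, or 3.89%, by limma with Benjamini-Hochberg adjusted p under 0.05 on log2(value + 1). Of these, 313 (2.07% of genes tested) were higher in spleen and 275 (1.82%) in marrow. An absolute log2 difference of at least 1 was reached by 165 and 164 of them. The median log2 difference, spleen minus marrow, over all genes tested was 0.02. Replicates of the tissues did not overlap in 3119 genes (20.6%). The number called depended on single libraries: it was 333 without spleen replicate 1, 269 without spleen replicate 3, 305 without marrow replicate 1 and 315 without marrow replicate 3.

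The genes of both directions differed in level, on the scale of normalised counts that are not divided by gene length. Genes higher in spleen had a median level in spleen of 1590, and 203 of the 313 (64.9%) reached 1000 there. Genes higher in marrow had a median level in marrow of 627, and 113 of the 275 (41.1%) reached 1000. In 71 of those 275 genes the spleen level was under 20, against 35 of the 313 genes higher in spleen with a marrow level under 20. Of the 313 genes 51, and of the 275 genes 36, stood in any of the 28 gene lists described next.

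**Figure D1:**
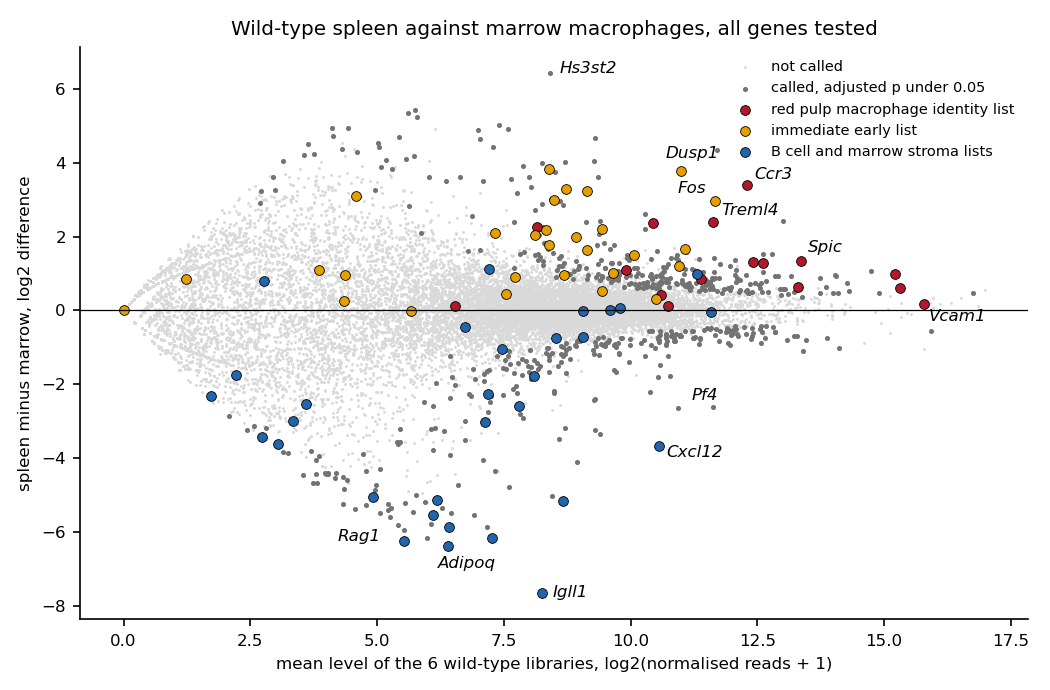
Each point is 1 of the 15130 genes tested, with its mean level in the 6 wild-type libraries on the x axis (log2 of the normalised count + 1) and the log2 difference, spleen minus marrow, on the y axis. Immediate early genes lie almost all above 0, red pulp macrophage identity genes lie above 0 at high levels, and B cell and marrow stroma genes lie mostly below 0 at low levels.

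Genes that mark red pulp macrophages were expressed in both tissues and were higher in spleen. Of the 16 members of that list, 10 were higher in spleen, none was higher in marrow and 6 were not called, with a median log2 difference of 1.05. The share called was 62.5%, against 3.89% of all genes tested. Both tissues expressed all 16, and the list took 2.24 to 2.51% of the signal in spleen and 1.47 to 1.56% in marrow. In the vavCre libraries 11 members were higher in spleen and none in marrow, with a median of 1.28. These are other libraries than those of the wild type, but both contrasts share 1 estimate of spread. The list was written with earlier results of these data known, and its direction is no independent evidence.

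The largest difference of the list was that of Ccr3, the receptor for eotaxin chemokines, at levels of 8818, 8707 and 9963 in spleen and 1146, 682 and 825 in marrow (log2 3.40 ± 0.28 SE; limma adjusted p = 5.75e-07). The tissues lay far apart, with no overlap. Treml4, which encodes a receptor that binds dead cells, was at 5261, 4429 and 6281 in spleen and 903, 1112 and 1013 in marrow (2.39 ± 0.22; limma adjusted p = 2.51e-06). Siglece, a sialic acid receptor gene, was lower in level, at 416, 389 and 612 in spleen and 113, 71.8 and 109 in marrow (2.26 ± 0.30; limma adjusted p = 1.62e-04). Neither gene's replicates overlapped between the tissues. Hpgd, the enzyme gene that inactivates prostaglandins, stood at 7256, 7023 and 8853 in spleen and 2636, 2970 and 3803 in marrow (1.31 ± 0.14; limma adjusted p = 7.76e-06). Spic itself was at 14600, 14180 and 16130 against 4985, 6704 and 6181, so that marrow macrophages expressed it too, at 4985 or more.

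The members that were not called include the adhesion gene Vcam1, at 56220, 57970 and 64210 in spleen and 54420, 46330 and 58170 in marrow (0.17 ± 0.09; limma adjusted p = 0.395). Pparg, the gene of the lipid-sensing nuclear receptor named in the series' title, was at 1691, 1550 and 2124 in spleen and 1703, 1601 and 1605 in marrow (0.12 ± 0.20; limma adjusted p = 0.84). For both genes the tissues overlapped. Itgad, the integrin gene used as a marker of red pulp macrophages, was at 8529, 10180 and 8060 in spleen and 3378, 3891 and 3728 in marrow. Its replicates did not overlap, and the shared estimate of spread, which includes the vavCre libraries, left it without a call (1.28 ± 0.91; limma adjusted p = 0.564; edgeR quasi-likelihood adjusted p = 0.0127).

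Of 24 iron and heme genes, 8 were higher in spleen and 1, the repressor gene Bach1, in marrow, with a median of 0.27. The share called was 37.5%, against 3.89% of all genes tested. Bach1 lost its limma call without marrow replicate 1 (adjusted p = 0.104), marrow replicate 2 (adjusted p = 0.0672), marrow replicate 3 (adjusted p = 0.0748), spleen replicate 1 (adjusted p = 0.0928) or spleen replicate 3 (adjusted p = 0.177). Hmox1, the enzyme that opens the heme ring, was at 47190, 45140 and 58340 in spleen and 19560, 34880 and 23160 in marrow (0.99 ± 0.20; limma adjusted p = 0.0164). Hmox1 lost its limma call without marrow replicate 3 (adjusted p = 0.0615) or spleen replicate 3 (adjusted p = 0.11). Slc40a1, which encodes the iron exporter ferroportin, was at 50450, 47560 and 49690 in spleen and 35450, 29190 and 32110 in marrow (0.61 ± 0.08; limma adjusted p = 6.90e-05). Slc11a1, a transporter gene of the phagosome, was at 6611, 6386 and 8084 and 4545, 4118 and 3911 in the same order (0.74 ± 0.12; limma adjusted p = 0.0013). Hfe, which acts in iron sensing, was at 3942, 4226 and 4678 and 1888, 2379 and 2038 (1.03 ± 0.15; limma adjusted p = 4.83e-04). In each of these 4 genes every spleen library was above every marrow library. The hemoglobin scavenger receptor gene Cd163, which stands in this list too, had the largest difference of it, at 2632, 1687 and 2619 in spleen and 599, 355 and 396 in marrow (2.37 ± 0.32; limma adjusted p = 1.78e-04). Tfrc, the gene of the transferrin receptor, was at 5168, 5679 and 3680 in spleen and 9588, 4828 and 8928 in marrow and was not called by limma (adjusted p = 0.0966). It was called without marrow replicate 2 (limma adjusted p = 0.00153) and by edgeR (adjusted p = 0.0481) and DESeq2 (adjusted p = 0.0179). Erythroblasts also express Tfrc, and the part of their RNA in its value was not tested.

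Outside the lists, the 10 largest differences each way were taken after their values were seen. They were drawn from called genes without overlap between the tissues that averaged 1000 or more in their higher tissue. Tspan13, a tetraspanin membrane protein gene, was at 13160, 13160 and 15090 in spleen and 2654, 2499 and 2524 in marrow (2.43 ± 0.13; limma adjusted p = 3.33e-09). The replicates lay close together on both sides. Slpi, a secreted inhibitor of neutrophil proteases, was at 1058, 1235 and 1289 in spleen and 40.2, 120 and 19.9 in marrow (4.66 ± 0.81; limma adjusted p = 0.00223). Hcar2, the receptor gene for niacin and beta-hydroxybutyrate, was at 1289, 1005 and 1342 against 74.4, 132 and 90.9 (3.63 ± 0.72; limma adjusted p = 0.00653). Slc45a3, a solute carrier gene, was at 2035, 2136 and 2215 against 272, 424 and 352 (2.63 ± 0.38; limma adjusted p = 3.90e-04). The lack of overlap in these genes was a condition of their choice. Rgs1, a brake on G protein signalling, was at 5608, 5866 and 7586 in spleen and 507, 166 and 344 in marrow (4.35 ± 0.33; limma adjusted p = 2.16e-07). Rgs1 was in no list here and is known to be induced with immediate early genes during tissue dissociation, and the part of dissociation in its value was not tested.

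Predicted genes and immunoglobulin segments, among others, were not ranked for naming. Of the genes ranked, the largest difference towards spleen was that of Hs3st2, an enzyme gene of heparan sulfate. Hs3st2 was at 512, 696 and 801 in spleen and 12.1, 2.63 and 8.36 in marrow (6.43 ± 0.82; limma adjusted p = 1.07e-04). Dlg2, a scaffold protein gene, was at 366, 397 and 342 in spleen and 14.1, 7.88 and 12.5 in marrow (4.92 ± 0.94; limma adjusted p = 0.005). C6, a component of the terminal complement pathway, was at 156, 271 and 316 against 8.04, 4.38 and 16.7 (4.65 ± 0.68; limma adjusted p = 3.90e-04). Adamdec1, a secreted metalloprotease gene of macrophages, was at 213, 406 and 367 against 14.1, 4.38 and 10.4 (5.02 ± 1.06; limma adjusted p = 0.0102). Adamdec1 lost its limma call without spleen replicate 3 (adjusted p = 0.0568). Dlg2, C6 and Adamdec1 were at 156 or more in each spleen library and at most 16.7 in marrow. A further 3 genes of the 15 largest had 0 reads in all marrow libraries, and a floor of 3 reads per library sets their size. Rasl11a was at least 8.33-fold, Akr1b7 at least 8.44-fold and Ppef2 at least 5.83-fold higher in spleen. Akr1b7 lost its limma call without marrow replicate 1 (adjusted p = 0.0516), marrow replicate 3 (adjusted p = 0.0513), spleen replicate 2 (adjusted p = 0.0518) or spleen replicate 3 (adjusted p = 0.0707). Ppef2 lost its limma call without marrow replicate 1 (adjusted p = 0.0502), marrow replicate 3 (adjusted p = 0.0511) or spleen replicate 3 (adjusted p = 0.0637). On recovered reads, edgeR's quasi-likelihood test called neither (adjusted p = 0.0985 for Akr1b7 and 0.0943 for Ppef2).

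Genes of the macrophage core and of the erythroblastic island were expressed in both tissues. Most were not called, but in each list the share called was above the 3.89% of all genes tested. Of 20 core macrophage genes, 7 were higher in spleen and 2 in marrow. Csf1r, the receptor gene for the growth factor CSF1, was at 16780, 17580 and 18370 in spleen and 9984, 8770 and 10080 in marrow (0.87 ± 0.11; limma adjusted p = 1.10e-04). Cd14, the co-receptor gene for bacterial lipopolysaccharide, was at 1163, 860.1 and 1488 and 294, 341 and 472 (1.66 ± 0.25; limma adjusted p = 4.83e-04). Lyz2, the lysozyme gene of myeloid cells, ran the other way, at 8862, 10880 and 16200 in spleen and 21060, 28980 and 20680 in marrow (-1.0 ± 0.18; limma adjusted p = 0.00418). In these 3 genes the tissues did not overlap. Of the 17 genes that serve the erythroblastic island, Slc40a1 and Cd163 were called and 15 were not, and the median was 0.16. Mertk and Axl, receptor genes for the uptake of dead cells, were at 5751, 6285 and 5664 and 20680, 20230 and 20460 in spleen and 5530, 3729 and 5734 and 16410, 18680 and 18970 in marrow. Their log2 differences were 0.26 ± 0.17 and 0.19 ± 0.16, with limma adjusted p of 0.499 and 0.639. Epor, the erythropoietin receptor gene, was at 1297, 1187 and 1263 in spleen and 1329, 1241 and 1348 in marrow, with overlapping replicates (-0.06 ± 0.20; limma adjusted p = 0.921).

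Of 28 macrophage transcription factor genes, Spic and Id2 were higher in spleen and Maf and Id3 in marrow. The share called was 14.3%, against 3.89% of all genes tested. Id2, an inhibitor of basic helix-loop-helix factors, was at 9511, 10850 and 9920 in spleen and 5900, 5091 and 5001 in marrow (0.92 ± 0.16; limma adjusted p = 0.00171). Maf, a regulator of macrophage differentiation, was at 9029, 7976 and 5814 in spleen and 14670, 9218 and 12830 in marrow (-0.68 ± 0.16; limma adjusted p = 0.0215). Maf lost its limma call without marrow replicate 1 (adjusted p = 0.133), marrow replicate 3 (adjusted p = 0.094) or spleen replicate 3 (adjusted p = 0.141). Id3 lost its limma call in each of the 6 fits that leave out 1 library, with adjusted p from 0.0659 to 0.133 (highest without marrow replicate 1). Spi1, Irf8 and Nr1h3, which build or maintain macrophages in many tissues, were not called, with log2 differences of 0.40, 0.21 and 0.42. None of 21 interferon response genes was called by limma, edgeR or DESeq2, and 0 had an unadjusted limma p under 0.05.

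Genes of several secreted and surface proteins were higher in marrow macrophages. Cd63, a tetraspanin of lysosomes and exosomes, was at 883, 718 and 1080 in spleen and 5323, 5554 and 5344 in marrow (-2.62 ± 0.15; limma adjusted p = 4.85e-09). The marrow libraries were close to each other, and the lowest of them was several times the highest spleen library. Pf4, a chemokine of platelets and of some macrophages, was at 528, 590 and 487 and 4066, 2413 and 3723 in the same order (-2.63 ± 0.18; limma adjusted p = 4.44e-08). Stab1, a scavenger receptor gene, was at 219, 243 and 148 and 1036, 1097 and 1006 (-2.39 ± 0.18; limma adjusted p = 1.47e-07). The tissues did not overlap in these genes, which was a condition for choosing the largest differences. Cd209f, a lectin receptor gene of the SIGN family whose members have similar sequences and may share reads, was at 474, 658 and 312 in spleen and 2753, 1523 and 2296 in marrow (-2.21 ± 0.22; limma adjusted p = 9.29e-06).

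Myo5a, a motor protein that carries vesicles along actin, was at 86.4, 104 and 167 in spleen and 1744, 897 and 1034 in marrow (-3.35 ± 0.27; limma adjusted p = 3.05e-07). The neighbouring membrane protein genes Tmem176a and Tmem176b moved together. Tmem176a was at 166, 159 and 277 and 953, 1051 and 1127 (-2.42; limma adjusted p = 2.14e-06) and Tmem176b at 859, 665 and 836 and 2433, 2836 and 2849 (-1.79; limma adjusted p = 5.75e-07). Ptafr, the receptor gene for platelet-activating factor, was at 759, 738 and 524 and 2486, 2223 and 2247 (-1.80 ± 0.18; limma adjusted p = 5.95e-06). Trem2, a lipid-sensing receptor gene of tissue macrophages and osteoclast precursors, was named after its values were seen. It was at 4.83, 28.2 and 12.3 in spleen and 296, 506 and 312 in marrow, a log2 difference of -4.78 ± 0.46 (limma adjusted p = 3.52e-06). The spleen level of Trem2 was low in each library, and every marrow library was at 296 or more.

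Genes of monocyte-attracting chemokines were higher in marrow. Of 29 chemokine ligand and receptor genes tested, 3 were higher in spleen (Ccr3, Ccl24 and Ccl4) and 7 in marrow. The share called was 34.5%, against 3.89% of all genes tested. Ccl4 lost its limma call without marrow replicate 2 (adjusted p = 0.062), spleen replicate 2 (adjusted p = 0.105) or spleen replicate 3 (adjusted p = 0.125). Ccl8 was at 3.02, 4.16 and 12.3 in spleen and 289.6, 118 and 147 in marrow (-4.73 ± 0.55; limma adjusted p = 3.06e-05). Ccl12 was at 13.3, 4.16 and 12.8 and 243, 117 and 122 (-3.93 ± 0.60; limma adjusted p = 6.22e-04), and Ccl7 at 6.65, 14.1 and 3.65 and 68.4, 57.8 and 106 (-3.22 ± 0.52; limma adjusted p = 9.98e-04). These 3 ligands draw monocytes, and no replicate overlapped. Cxcl16, the ligand of CXCR6 and a scavenger of oxidised lipid, was at 98.5, 102 and 194 and 420.3, 696 and 652 (-2.19 ± 0.29; limma adjusted p = 1.17e-04). Ccl24, a ligand of CCR3, was higher in spleen, at 729, 716 and 684 against 109, 110.4 and 76.3 (2.86 ± 0.33; limma adjusted p = 3.05e-05). Ligand and receptor, Ccl24 and Ccr3, were thus both higher in the spleen libraries.

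Of the listed complement genes 30.0% were called, against 3.89% of all genes tested. C6, which is not on the list, was higher in spleen, as given above. Of the 20 listed genes, 6 were higher in marrow and none in spleen, at a median of -0.20. These include Cd55, which speeds the decay of complement convertases on cell surfaces, at 249, 429 and 536 in spleen and 1273, 902 and 1612 in marrow (-1.67 ± 0.25; limma adjusted p = 5.63e-04). C3ar1, the receptor gene for the fragment C3a, was at 176, 256 and 211 and 638, 397 and 678 (-1.39 ± 0.22; limma adjusted p = 8.92e-04). The genes of C1q, which starts the classical pathway, were not called, with differences of 0.44 for C1qa, 0.38 for C1qb and 0.04 for C1qc. Without marrow replicate 2, limma called C1qa (adjusted p = 0.0119) and C1qb (adjusted p = 0.00281). Scavenger and efferocytosis receptor genes split evenly, with 5 higher in each tissue of 29 tested. The share called was 34.5%, against 3.89% of all genes tested. Clec4n, the gene of dectin-2, was at 8639, 8090 and 11150 in spleen and 3069, 3692 and 2835 in marrow (1.53 ± 0.14; limma adjusted p = 2.51e-06). Marco, a receptor gene for bacteria and particles, was at 2616, 2308 and 3480 and 1456, 792 and 1071 (1.36 ± 0.18; limma adjusted p = 1.61e-04). Colec12, a collectin scavenger receptor gene, was higher in marrow, at 113, 93.1 and 162 against 794, 431 and 542 (-2.25 ± 0.29; limma adjusted p = 1.02e-04).

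Lipid genes under PPAR and LXR control showed no common direction, with 2 of 21 higher in spleen and 2 in marrow and a median of 0.10. The share called was 19.0%, against 3.89% of all genes tested. Lpl, which releases fatty acids from lipoproteins, was at 7819, 5847 and 6862 in spleen and 16030, 11980 and 16490 in marrow (-1.11 ± 0.13; limma adjusted p = 3.18e-05). Plin2, which coats lipid droplets, was at 2997, 3139 and 3911 and 1683, 2195 and 1665 (0.86 ± 0.16; limma adjusted p = 0.00497). The tissues did not overlap in either gene. The cholesterol exporter genes split: Abca1 was lower in spleen, with 3622, 4033 and 3927 against 5773, 5227 and 7045 (-0.63; limma adjusted p = 0.00621), and Abcg1 higher, with 4110, 3572 and 4743 against 2946, 2906 and 3051 (0.47; limma adjusted p = 0.0466). Abca1 lost its limma call without marrow replicate 3 (adjusted p = 0.0513). Abcg1 lost its limma call without marrow replicate 1 (adjusted p = 0.126), marrow replicate 2 (adjusted p = 0.0771), marrow replicate 3 (adjusted p = 0.102), spleen replicate 1 (adjusted p = 0.14) or spleen replicate 3 (adjusted p = 0.237).

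Of the MHC class II genes 18.2% were called, and of the inflammatory genes tested 16.7%, against 3.89% of all genes tested. Both lists are short. Of 11 MHC class II genes, 2 (H2-DMa and H2-DMb1) were higher in spleen and none in marrow, with a median of 0.85. H2-DMa, which helps to load peptides, was at 1814, 1949 and 2365 in spleen and 853, 1707 and 701 in marrow (1.01 ± 0.25; limma adjusted p = 0.03), with no overlap. The class II gene H2-Aa was at 607, 638 and 702 and 195, 236 and 210.1, also with no overlap and with no call (1.60 ± 0.55; limma adjusted p = 0.132). With the compared groups alone limma called H2-Aa (adjusted p = 0.00101). H2-DMa lost its limma call without marrow replicate 1 (adjusted p = 0.134), marrow replicate 3 (adjusted p = 0.156), spleen replicate 1 (adjusted p = 0.0626), spleen replicate 2 (adjusted p = 0.0715) or spleen replicate 3 (adjusted p = 0.159). H2-DMb1 lost its limma call without the same libraries, with adjusted p of 0.151, 0.0647, 0.0594, 0.103 and 0.129 in that order. Of 18 inflammatory cytokine and NF-kB target genes tested, Ccl4 was higher in spleen and Ccl7 and Ccl2 in marrow, with a median of 0.59. Ccl2 lost its limma call without marrow replicate 1 (adjusted p = 0.183), spleen replicate 1 (adjusted p = 0.145) or spleen replicate 2 (adjusted p = 0.0927). It was not called with the compared groups alone either (limma adjusted p = 0.146).

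**Figure D2:**
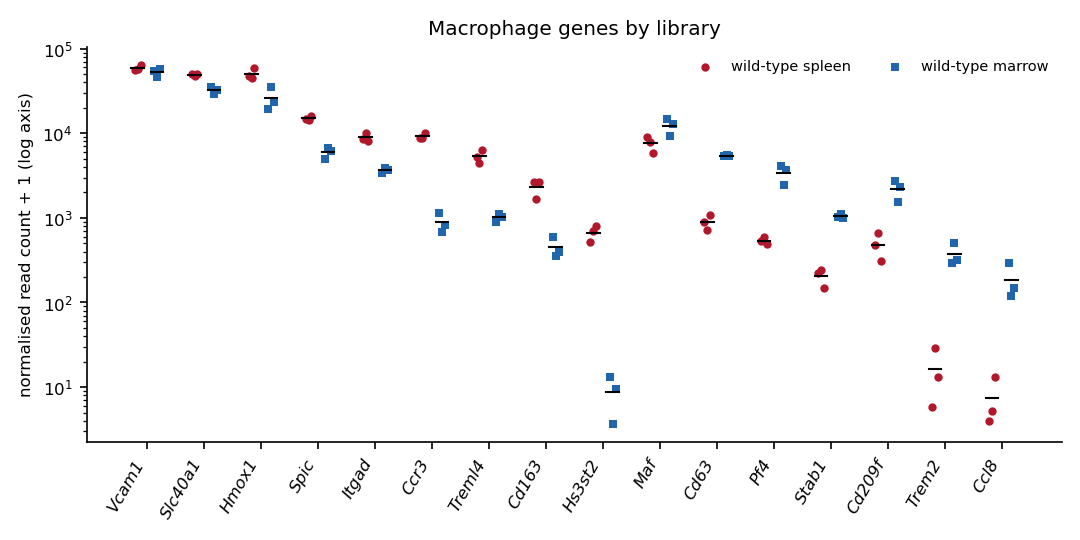
Points show the normalised read count + 1 (log axis) of 16 macrophage genes in the 3 spleen and the 3 marrow libraries of the wild type, with a bar at the mean of each group. The groups overlap for Vcam1. From Slc40a1 to Hs3st2 the spleen levels are the higher, and from Maf to Ccl8 the marrow levels are the higher.

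Immediate early genes were higher in spleen macrophages as a group. Of 29 members tested, 15 were higher in spleen and none in marrow (14 not called), with a median log2 difference of 1.63. The share called was 51.7%, against 3.89% of all genes tested. Together the members of the list took 0.238, 0.292 and 0.372% of the signal in the spleen libraries and 0.0957, 0.0788 and 0.095% in the marrow libraries. The ratio of the means was 3.35, and the exact permutation test, two-sided, gave p = 0.1, the smallest that 3 against 3 libraries allow. The vavCre libraries showed the same order, with 0.342 ± 0.0771% in spleen and 0.0944 ± 0.017% in marrow (SD, n = 3 each). The Spic_WT spleen libraries of the other table of the series had 0.307 ± 0.0379% (SD, n = 3). Each spleen group was therefore above each marrow group measured.

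Dusp1, a phosphatase that switches off MAP kinases, was at 2396, 3418 and 5576 in spleen and 263, 235 and 287 in marrow (3.77 ± 0.38; limma adjusted p = 5.72e-06). Fos, a subunit of the factor AP-1, was at 3440, 4713 and 9356 and 571, 686 and 799.5 (2.97 ± 0.40; limma adjusted p = 9.98e-04). For both genes spleen replicate 3 was the highest and spleen replicate 1 the lowest, and marrow replicates were close together. Egr1, a zinc finger factor, was at 676, 1050 and 1313 and 191, 71 and 81.5 (3.23 ± 0.36; limma adjusted p = 1.74e-05). Atf3, a factor of the stress response, was at 477, 628 and 727 and 113, 24.5 and 25.1 (3.83 ± 0.49; limma adjusted p = 1.10e-04). Zfp36, which destabilises cytokine messages, was at 3274, 3256 and 3276 and 1333, 779 and 1041 (1.67 ± 0.20; limma adjusted p = 4.83e-05). The groups did not overlap in any of these 5 genes. Jun, Junb, Nr4a1, Fosb, Btg2 and Klf6 were higher in spleen too, with log2 differences of 2.20, 1.63, 3.0, 3.29, 1.50 and 1.21. Of the members not called, Nfkbia was at a difference of 0.32, Ier5 at 0.54 and Gadd45b at -0.01. None of 13 heat shock genes was called by limma, with a median of 0.29 (3 had an unadjusted p under 0.05, edgeR called 1 and DESeq2 2). Hspa8, a constitutive chaperone gene, was at 9083, 9374 and 13250 in spleen and 8219, 9087 and 7471 in marrow.

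**Figure D3:**
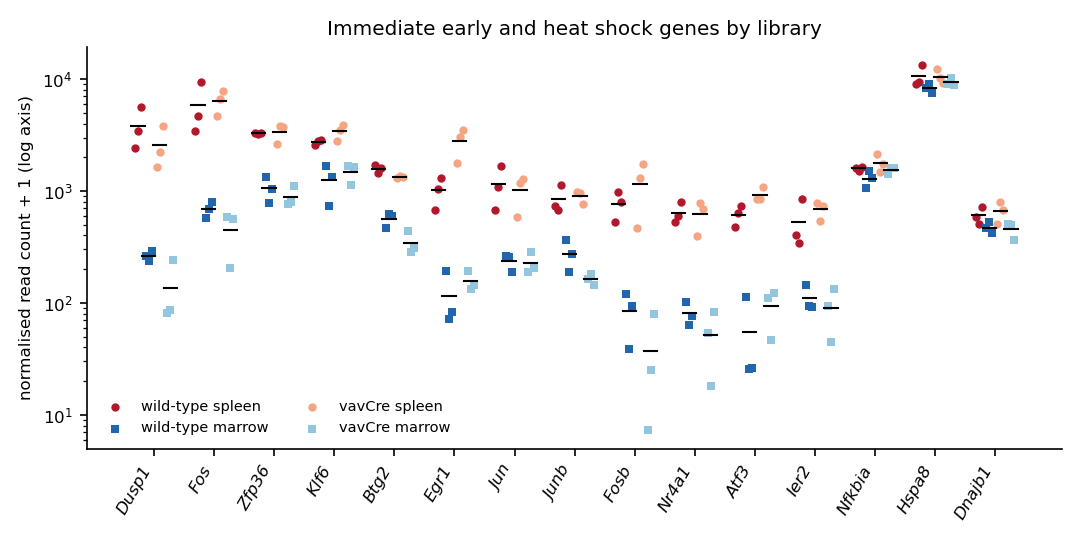
Points show the normalised read count + 1 (log axis) of 13 immediate early genes and 2 heat shock genes (Hspa8 and Dnajb1) in the 12 libraries of the table, with a bar at each group mean. For Dusp1, Fos and most others the spleen libraries of both genotypes stand above the marrow libraries of both, while the groups overlap for Dnajb1.

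For 24 of the 30 listed immediate early genes RefSeq (GRCm38.p6) gave promoters, 30 in all since a gene can have several start sites. They are described because these genes moved together. The cAMP response element TGACGTCA, a palindrome bound by CREB, was searched in the 250 bases before each start site on both strands, as was the serum response element. TGACGTCA stood in 3 of 30 promoters of the list (10%) and in 1.55% of all 32851 promoters of the table. The serum response element stood in 5 of 30 (16.7%), of which 4 are start sites of Egr2, and in 1.47% of all. Shown are the promoters of the called genes Dusp1, Btg2 and Zfp36 that hold one, on the minus strand at chr17:26508473-26508722, chr1:134079156-134079405 and chr7:28379229-28379478, read 5′ to 3′ towards the start site. Capitals mark TGACGTCA in Dusp1 and Btg2, at 135 and 158 bases from the start site, and the serum response element in Zfp36, at 48 bases.
Dusp1: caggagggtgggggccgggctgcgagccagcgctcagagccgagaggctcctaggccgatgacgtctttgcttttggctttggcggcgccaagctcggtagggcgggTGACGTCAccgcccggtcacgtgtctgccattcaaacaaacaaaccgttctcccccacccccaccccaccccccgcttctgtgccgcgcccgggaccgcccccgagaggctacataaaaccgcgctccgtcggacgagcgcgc
Btg2: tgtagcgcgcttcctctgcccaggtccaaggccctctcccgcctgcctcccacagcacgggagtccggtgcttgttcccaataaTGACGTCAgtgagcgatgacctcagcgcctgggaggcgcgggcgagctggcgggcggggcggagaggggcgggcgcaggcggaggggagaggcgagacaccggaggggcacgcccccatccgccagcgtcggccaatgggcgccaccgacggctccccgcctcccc
Zfp36: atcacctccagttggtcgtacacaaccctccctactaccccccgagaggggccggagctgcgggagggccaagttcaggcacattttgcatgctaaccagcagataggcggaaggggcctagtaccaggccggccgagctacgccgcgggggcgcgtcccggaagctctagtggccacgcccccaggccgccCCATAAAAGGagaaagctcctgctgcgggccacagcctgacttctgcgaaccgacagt
These matches describe the letters of the promoters, and no binding was measured. The site GAGGAAGT, bound by PU.1 and SPIC, stood in none of 13 promoters of the red pulp macrophage identity list and in 2.44% of all. It stood in 11 of 321 promoters of the genes higher in spleen (3.43%) and in 11 of 281 of those higher in marrow (3.91%).

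Adjusting for the immediate early level could not separate it from the tissue. The mean log2 level of the list was 8.09 to 8.44 in spleen and 6.23 to 6.84 in marrow, with no overlap. With that mean as a term of the fit, the median standard error of the tissue difference grew from 0.46 to 1.198, and 14 genes were called (5 higher in spleen and 9 in marrow). Of the named genes with a call, 8 kept it, 88 lost it and 4 changed sign (Adamdec1, Gpr141, Fosb and Klf6). By the size of the adjusted difference, Treml4 (2.38 ± 0.60 SE, against 2.39), Spic (1.52 ± 0.32, against 1.34), Tspan13 (2.01 ± 0.33, against 2.43) and Clec4n (2.0 ± 0.37, against 1.53) stayed near their unadjusted values. Ccr3 (1.09 ± 0.49, against 3.40), Dusp1 (0.75 ± 0.67, against 3.77) and Zfp36 (0.20 ± 0.39, against 1.67) did not. Cd163 (0.82, against 2.37) and Ccl4 (0.036, against 2.105) fell as well, while Ccl24 (2.73, against 2.86) changed little. Dusp1, Zfp36, Fosb and Klf6 are members of the list whose mean is the term, so their change is partly built in. Among genes higher in marrow, Cd63 was at -2.32 ± 0.39 and Stab1 at -2.50 ± 0.47 after the adjustment. The tissue and the immediate early level cannot be told apart by this term, and the change of these values was not tested. All 15 called immediate early genes were among the 313 genes higher in spleen, and the other 298 are not on that list.

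Early B cell genes were higher in marrow, and Igll1 had the largest difference of the called genes that were ranked for naming. Igll1, part of the surrogate light chain of pre-B cells, was at 1.81, 6.65 and 0 in spleen and 634, 864 and 322 in marrow (-7.66 ± 0.84; limma adjusted p = 1.60e-05). Vpreb1, the partner of Igll1, was at 2.42, 11.6 and 0 and 145, 562 and 195 (-6.17 ± 1.05; limma adjusted p = 0.00171). Rag1, which cuts DNA to assemble antigen receptor genes, had 1 read in the spleen libraries together, and the ratio of its level was 422 (95% counting interval 75 to 16800). These genes act in the development of B cells, a process of the marrow, and are not known as macrophage genes. The 6 early B cell genes Igll1, Rag1, Vpreb1, Vpreb2, Vpreb3 and Dntt took 9.33e-05 to 0.000706% of the signal in spleen and 0.0134 to 0.0283% in marrow. The whole B cell list overlapped, at 0.0391 to 0.0806% in spleen and 0.0594 to 0.139% in marrow. Of its 16 tested members 4 were called, all higher in marrow, and 11 to 14 were above 0 in spleen and 15 or 16 in marrow. Genes of mature B cells were present in both tissues without a call, such as Cd79b at 2391, 2692 and 3888 in spleen and 1929, 4015 and 3606 in marrow and Ms4a1 at 166, 418 and 1130 and 257, 879.6 and 351. Fewer cells of a type and less RNA per cell cannot be told apart in bulk libraries.

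Genes of marrow stroma and bone cells followed, with 6 of 15 tested members higher in marrow and 1, Acp5, higher in spleen, at a median of -2.98. The share called was 46.7%, against 3.89% of all genes tested. Adipoq, the fat cell hormone gene, was at 0.604, 0.831 and 0.456 in spleen and 316, 65.7 and 118 in marrow (ratio 224, 95% counting interval 75.9 to 1090; limma adjusted p = 0.00674). Spp1, the bone matrix protein osteopontin, was at 3.02, 2.49 and 0.456 and 199, 98.1 and 106 (-5.55 ± 0.57; limma adjusted p = 7.76e-06). Bglap, the osteoblast product osteocalcin, was at 0, 2.49 and 0.456 and 74.4, 48.2 and 50.2 (-5.06 ± 0.96; limma adjusted p = 0.00497). Adipoq, Alpl, Lepr, Bglap and Spp1, picked from the list, together took 2.3e-05 to 0.000396% of the signal in spleen and 0.0054 to 0.00932% in marrow. As the genes of this sum were picked, its gap is no separate evidence. Alpl lost its limma call without marrow replicate 2 (adjusted p = 0.0552), spleen replicate 1 (adjusted p = 0.0582) or spleen replicate 3 (adjusted p = 0.0848). The whole marrow stroma and bone list overlapped, at 0.0419, 0.0461 and 0.0568% in spleen and 0.0789, 0.047 and 0.073% in marrow, with 11 to 15 of its members above 0 in spleen and 15 to 17 in marrow. Cxcl12, the niche chemokine, was at 288, 55.7 and 424 and 3799, 1084 and 3421 and was not called by limma (adjusted p = 0.0974), though its replicates did not overlap. It was called by edgeR's quasi-likelihood test (adjusted p = 0.00161) and DESeq2 (adjusted p = 0.00353), and by limma with no filter (0.0235), a pseudocount of 5 (0.0344) or the erythroid term (0.0485). Acp5, an acid phosphatase used as an osteoclast marker and also made by macrophages, was at 2787, 3277 and 4028 in spleen and 1414, 1912 and 1710 in marrow (1.0 ± 0.18; limma adjusted p = 0.00397). The whole list summed to 4068, 4455 and 5638 in spleen and 7270, 4470 and 6671 in marrow. Acp5 thus made up most of the spleen signal of the list. The largest differences outside the lists ran beside these genes. Mme (a peptidase gene of early B cells and stroma) and Tnc (a matrix gene) were at 0.604, 0.831 and 0 and 1.21, 0 and 0 in spleen and 316, 35.9 and 162 and 123, 73.6 and 26.1 in marrow. Mme lost its limma call without marrow replicate 1 (adjusted p = 0.0542). Tnc lost its limma call without marrow replicate 1 (adjusted p = 0.0667) or spleen replicate 3 (adjusted p = 0.0544). Whether RNA of stroma, bone cells or B cells contributed to the marrow values of other genes was not tested.

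Genes of erythroblasts, the neighbour that both macrophages hold, together took overlapping shares of the signal in the tissues. The globin genes took 3.07, 3.25 and 2.07% of the signal in spleen and 3.48, 2.79 and 2.31% in marrow. The means were 2.79 ± 0.631 and 2.86 ± 0.585% (SD, n = 3 each), with a two-sided exact permutation p of 1.0. Of 23 erythroid genes tested, none was called by limma, edgeR or DESeq2 (2 had an unadjusted limma p under 0.05), 17 had a positive and 6 a negative difference, and the median was 0.33. Replicates did not overlap in 4 of the 23, all higher in spleen, against 20.6% of all genes tested in either direction. In vavCre, limma called 5 of the 23 higher in spleen and none in marrow, with a median of 0.60, against 3.5% of all genes tested. Hba-a1, an alpha globin gene with a near copy, was at 70180, 78700 and 48120 in spleen and 76250, 61140 and 50960 in marrow. Slc4a1, the red cell anion exchanger, was at 2314, 2271 and 1528 and 2013, 1379 and 1455 (0.33 ± 0.24; limma adjusted p = 0.568). With the mean log2 of the erythroid list as a term, 94 named calls were kept, 6 were lost and 569 genes were called in all. Of 27 cell cycle genes none was called by limma or edgeR and 1 by DESeq2 (2 had an unadjusted limma p under 0.05), with a median of 0.04 and Mki67 at 4946, 5504 and 4221 in spleen and 5586, 3596 and 5176 in marrow.

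Limma called 5.56% of the T and NK cell list and 13.3% of the megakaryocyte and platelet list, against 3.89% of all genes tested. No neutrophil gene of 18 was called by limma (3 had an unadjusted p under 0.05, and edgeR and DESeq2 each called 2), at a median of -1.22 with a median SD within groups of 2.03 in spleen and 2.32 in marrow. S100a8 ran from 45.9 to 676 in spleen and from 113 to 1215 in marrow, and the tissues overlapped over a wide range. Of the T and NK cell list only Cd4 was called, at 740.2, 683 and 776 in spleen and 1422, 1466 and 2393 in marrow (-1.22 ± 0.17; limma adjusted p = 2.77e-04), while the T cell receptor gene Cd3e was at 3.63, 5.82 and 30.6 and 0, 34.2 and 10.4. Cd4 is transcribed by some mouse macrophages too. Of the megakaryocyte and platelet list, Pf4 was higher in marrow and Clec1b, the podoplanin receptor gene, in spleen, at 427, 768 and 599 against 151, 29.8 and 76.3 (3.03 ± 0.53; limma adjusted p = 0.00233). The platelet genes Itga2b and Gp9, which define that lineage, were at 17.5, 16.6 and 1.37 and 72.5, 20.8 and 51.6 in spleen and 28.1, 6.13 and 4.18 and 8.04, 78.8 and 44.9 in marrow, without a call. Both platelet genes overlapped between the tissues.

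Among the blood cell types closest to macrophages, 18.2% of the monocyte genes were called, against 3.89% of all genes tested. Of 11 monocyte genes, the orphan receptor gene Gpr141 was higher in spleen and the haptoglobin gene Hp in marrow. Gpr141 was at 302, 181 and 396 in spleen and 22.1, 1.75 and 33.4 in marrow (4.43 ± 1.04; limma adjusted p = 0.0202), and Hp was at 0.604, 0 and 22.8 and 167, 193 and 78.4 (limma adjusted p = 0.0282). Neither gene overlapped. Hp lost its limma call without marrow replicate 1 (adjusted p = 0.103), marrow replicate 2 (adjusted p = 0.0679), marrow replicate 3 (adjusted p = 0.0615), spleen replicate 1 (adjusted p = 0.111) or spleen replicate 2 (adjusted p = 0.115). None of 14 dendritic cell genes was called by limma (5 had an unadjusted p under 0.05, and edgeR and DESeq2 each called 2), with a median of 0.77. None of 15 blood stem and progenitor cell genes was called by limma, edgeR or DESeq2 (3 had an unadjusted limma p under 0.05), nor any of 10 eosinophil, basophil and mast cell genes (1 had an unadjusted limma p under 0.05). Prss34, a protease gene of basophils, was at 140.2, 13.3 and 0.913 in spleen and 28.1, 2138 and 11.5 in marrow, so that marrow replicate 2 held most of it.

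Of the endothelial list, Pecam1 and Stab2 were higher in spleen and 16 of 18 genes were not called. The share called was 11.1%, against 3.89% of all genes tested. Pecam1, an adhesion gene of endothelium and of leukocytes, was at 896, 1185 and 1307 in spleen and 147, 349 and 170.4 in marrow (2.43 ± 0.37; limma adjusted p = 5.51e-04). Stab2, a hyaluronan receptor gene of sinusoids, was at 3371, 3218 and 2772 and 1860, 1697 and 2012 (0.75 ± 0.16; limma adjusted p = 0.01). Stab2 lost its limma call without spleen replicate 1 (adjusted p = 0.0641). The defining endothelial gene Cdh5 was at 44.7, 35.7 and 29.7 in spleen and 147, 44.7 and 51.2 in marrow, with overlapping replicates. None of 15 spleen stroma genes tested was called by limma or edgeR and 1 by DESeq2 (7 had an unadjusted limma p under 0.05), and Tlx1, the factor that defines spleen stroma, was at 6.65, 15.8 and 8.67 in spleen and 0, 0.876 and 0 in marrow.

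**Figure D4:**
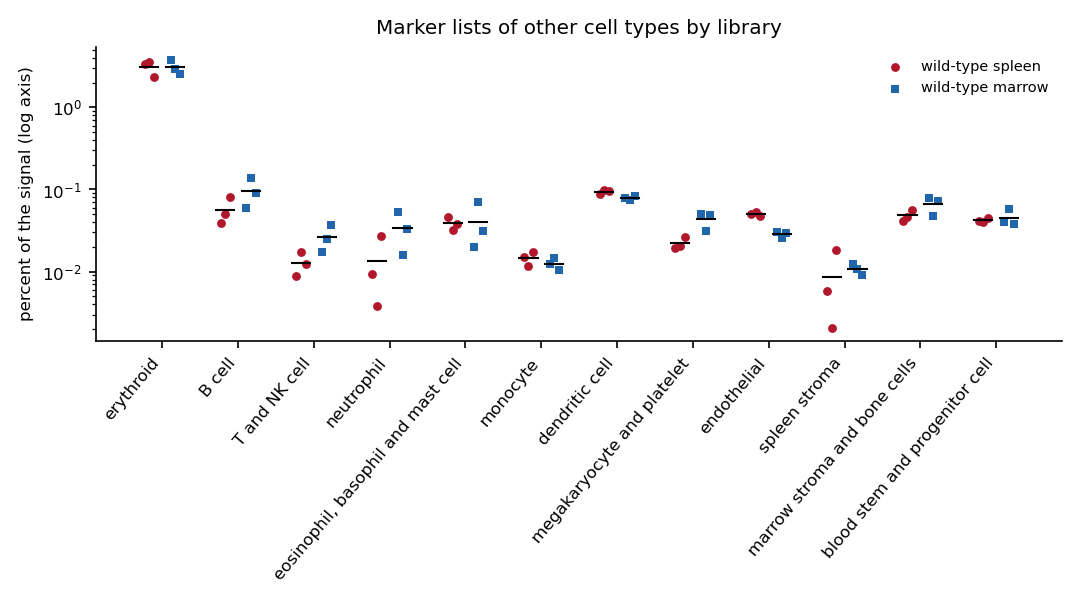
Points give the share of a library's signal (percent, log axis) taken by each of 12 marker lists of other cell types, with a bar at the mean of the 3 spleen and of the 3 marrow libraries. Erythroid genes take the largest share at about the same level in both tissues, and the whole-list shares of B cells, neutrophils, spleen stroma and marrow stroma overlap or spread widely within a tissue.

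The same tissue contrast in vavCre pups took its means from none of the wild-type libraries. Its standard errors and adjusted p-values use the estimate of spread that all 4 groups share, so its calls are no independent repeat. The vavCre contrast called 529 genes (3.5%), 405 higher in spleen (2.68%) and 124 higher in marrow (0.82%). Of the 313 genes higher in wild-type spleen, 174 (55.6%) were higher in vavCre spleen too, which is 43.0% of those 405. Of the 275 genes higher in wild-type marrow, 66 (24.0%) were higher in vavCre marrow, or 53.2% of those 124. In the opposite direction 1 gene was called. Pparg itself was at 4002, 2496 and 2613 in vavCre spleen and 2972, 2088 and 1813 in vavCre marrow, and a count per gene does not show whether part of a gene is deleted. The sign of the difference was the same in 296 of the 313 and in 251 of the 275. The difference between genotypes itself passed in 18 genes of all tested (0.119%), 2 of them among the 313 and 10 among the 275.

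Some of the genes that led the spleen side in wild type were higher in vavCre spleen as well, and others were not. Of the 35 genes higher in wild-type spleen with a marrow level under 20, 11 (31.4%) were called higher in vavCre spleen. With a marrow level of 20 or more it was 163 of 278 (58.6%). Ccr3 was at 2920, 4817 and 4416 in vavCre spleen and 201, 138 and 392 in vavCre marrow (4.15 ± 0.28; limma adjusted p = 6.76e-08), and Tspan13 at 8423, 8813 and 7986 and 1446, 1059 and 1521 (2.66 ± 0.13; limma adjusted p = 6.55e-10). Slpi, Rgs1, Dlg2 and C6 were called there too, at differences of 3.90, 4.54, 6.28 and 3.79. Gpr141, Epha4, Pdgfrl and Cd69, which were among the largest in wild type at low levels, were not, at -0.61, 0.54, 1.05 and -2.29. In wild type, too, the call of Gpr141 was lost in 3, that of Epha4 in 5 and that of Cd69 in 6 of the 6 fits that leave out 1 library, with adjusted p up to 0.115 (without spleen replicate 3), 0.12 (without marrow replicate 3) and 0.2 (without spleen replicate 1) by limma. On the marrow side Tmem176a, Tmem176b, Cd55 and Colec12 were called in both genotypes, in vavCre at -2.04, -1.53, -1.70 and -1.71. Igll1 was at 6.14, 1.7 and 3.97 in vavCre spleen and 142, 665 and 249 in vavCre marrow (-5.98 ± 0.84; limma adjusted p = 2.30e-04), and Adipoq at 0, 11 and 1.59 and 31.4, 1.21 and 0 (-0.40; limma adjusted p = 0.923).

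**Figure D5:**
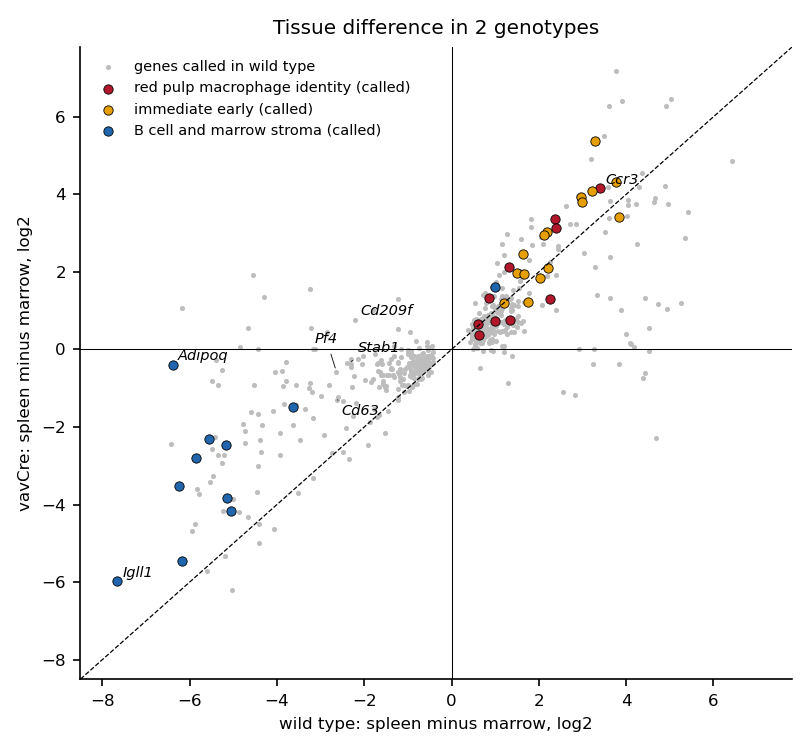
Each point is 1 of the 588 genes called in wild type, with its log2 difference between spleen and marrow in wild type on the x axis and in vavCre on the y axis, and the dashed line marks equal differences. Identity and immediate early genes lie near the line, while Pf4, Stab1 and Cd209f lie near or above 0 on the vavCre axis.

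In GRCm38 coordinates of GENCODE vM21, given as the whole span of a gene, the leading genes lie as follows. Ccr3 is at chr9:124021972-124031689, Treml4 at chr17:48264295-48275360, Spic at chr10:88674772-88685015 and Tspan13 at chr12:36014557-36042500. Cd63 is at chr10:128900989-128912822, Pf4 at chr5:90772435-90773383 and Stab1 at chr14:31139013-31168641. Tmem176a (chr6:48840919-48847071) and Tmem176b (chr6:48833818-48841496) are next to each other, and no source used here says that reads were counted by strand, so those where neighbouring genes overlap cannot be told apart.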

How the data were processed

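Libraries were made from 1000 sorted cells with oligo-dT priming, PCR amplification and tagmentation, per the labels' protocols. The submitters' processing notes list STAR, edgeR and GRCm38, with no version or role. No header states the unit of the deposited signal. Its values, divided by a factor of each library, came out as whole reads in 97.74 to 100% of cases (within 0.1 read, up to 500 reads), and so are read counts that the authors normalised by library.

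Genes that reached 1 in 2 or more of the 12 libraries were tested with limma 3.58.1 (R 4.3.3), with trend and robust moderation, on log2(value + 1), which understates the change of low genes. The fit had 1 mean for each of 4 groups (8 residual degrees of freedom) and Benjamini-Hochberg adjustment over 15130 genes. It was tested on simulated data. Shares of signal were compared by exact permutation (SciPy 1.17.1). Alternatives were other filters and pseudocounts, the compared groups alone, a replicate block, each library left out, an immediate early or erythroid term, and, on recovered reads, edgeR 4.0.16 and DESeq2 1.42.0. A call is an adjusted p under 0.05.

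The members and the 28 gene lists were chosen with earlier results of these data known. Named by rule were the 15 largest called differences each way without overlap that averaged 20 or more in the higher tissue, up to 4 called members of each list with the smallest p (or the 2 with the highest mean where none was called), Pparg and Spic. Predicted, ribosomal, mitochondrial and small RNA genes were not ranked. Nor were immunoglobulin and T cell receptor segments, Xist and Y-linked genes. The 10 largest called differences each way without overlap that averaged 1000 or more, Trem2 and the further members described were named after their values were seen. The edgeR scaling by size factors was added then too. Intervals and the floor of 3 reads per library cover only counting error, as PCR copies carry no molecular identifiers. GENCODE vM21 held 22291 of 22524 identifiers. Some members of the lists are counted and not reported singly here.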

Additional observations from a re-analysis of the deposited data

Results flagged for a closer look

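A tissue difference that itself differed between wild type and vavCre, by the test of that difference over all genes (limma adjusted p under 0.05), brought 7 named genes here. Each value is the wild-type log2 difference, spleen minus marrow, less the vavCre one, with its SE. For Pf4 it was -2.05 ± 0.25 (limma adjusted p = 5.84e-04) and the gene was at 9144, 11010 and 14120 in vavCre spleen and 15850, 16840 and 17850 in vavCre marrow, against 528, 590 and 487 and 4066, 2413 and 3723 in wild type. For Stab1 it was -2.03 ± 0.25 (limma adjusted p = 5.84e-04), with vavCre levels of 6589, 7539 and 8392 in spleen and 8130, 10240 and 10490 in marrow. Both genes were higher in vavCre spleen than in wild-type spleen in every library.

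For the tetraspanin gene Cd63 the value was -1.32 ± 0.21 (limma adjusted p = 0.0098), with vavCre levels of 3617, 2958 and 3614 in spleen and 8576, 9379 and 7177 in marrow. For Cd209f it was -2.97 ± 0.32 (limma adjusted p = 4.82e-04), and the vavCre levels of 41770, 41940 and 35480 in spleen and 25250, 25550 and 19670 in marrow run the other way from wild type. For the chemokine Ccl7 it was -3.78 ± 0.73 (limma adjusted p = 0.0484), with 627, 876 and 1270 and 1143, 543 and 353.

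In 2 of the 7 genes the wild-type tissues were not called apart, and the difference between genotypes comes with a vavCre difference. For Vcam1 the value was -1.10 ± 0.13 (limma adjusted p = 5.84e-04), with vavCre levels of 34620, 36170 and 32840 in spleen and 15970, 13590 and 13580 in marrow. For Ear2, a ribonuclease gene of eosinophils and macrophages with near-identical copies that may share reads, it was -3.55 ± 0.57 (limma adjusted p = 0.0098). Ear2 was at 526, 604 and 603 in vavCre spleen and 23, 13.3 and 81.5 in vavCre marrow, against 3526, 3060 and 3712 and 1760, 2019 and 2666 in wild type, where the replicates did not overlap and the compared groups alone gave a call (limma adjusted p = 0.0232).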

How the results depend on the processing

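The wild-type contrast called 588 genes, 313 higher in spleen and 275 in marrow. Without 1 library it called 269 to 665 genes, of which 145 to 344 were higher in spleen and 121 to 321 in marrow. DESeq2 called 952 (445 and 507), and a minimum absolute log2 difference of 1 left 329 (165 and 164). With the mean immediate early level as a term 14 were called (5 and 9), Adamdec1 went to -0.90, Gpr141 to -0.998, Fosb to -2.05 and Klf6 to -0.46, and the median standard error was 1.198 against 0.46. Fosb and Klf6 are themselves part of that mean. No other fit turned the sign of a named call. The count stayed between 476 and 627 with no filter, a stricter filter, a pseudocount of 0.1 or 5, the compared groups alone, edgeR with either scaling or on thinned reads, and the erythroid term. Of the named calls, 72 held in all 6 fits that leave out 1 library and 28 did not, while edgeR lost 7 or 8, by scaling, and DESeq2 2. The vavCre contrast called 529 genes, and 271 to 479 without 1 library. The globin share differed between tissues by -0.0666 percentage points, and by -0.34 to 0.294 without 1 library, where the sign turned to 0.294 without spleen replicate 3 and to 0.242 without marrow replicate 1.

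Spleen and marrow share replicate numbers, and the deviations of same-numbered libraries had r of 0.0622, -0.0653 and 0.0268 across 10074 genes, each under 0.1, and not every library correlated best with its own number, so pairing was not shown by this measure. Yet the Y-linked share was near 0 in the same replicate number of both tissues (3 in wild type, 2 in vavCre), and the interferon list share followed the order of the numbers in both wild-type tissues (0.168, 0.106 and 0.0904% in spleen, 0.153, 0.0999 and 0.0849% in marrow). Whether same-numbered libraries share an animal is not given in the sources used here. With the replicate number as a block 537 genes were called (293 higher in spleen, 244 in marrow), of which 277 and 236 were among the 313 and 275. Of the named calls, the block lost Abcg1 (limma adjusted p = 0.0694), Bach1 (0.0519) and Id3 (0.0536).

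Depth was lower in marrow, which limits calls of genes with few reads there.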
